A study of Mus musculus with 2 samples.

Results

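Bone morphogenetic protein (BMP) signalling was described here through 10 genes: the ligands Bmp4, Bmp5, Bmp6 and Bmp7, the extracellular modulator Bmper, the receptors Bmpr1a, Bmpr1b and Bmpr2, and the target genes Id1 and Id3. They were taken by symbol from the 55416 features of the deposited matrices, and each symbol matched 1 feature. The set was chosen by UMI levels across cell types and libraries in these same matrices, so those levels are a description and no test is made of them. BMP ligands are secreted dimers that bring type I and type II receptor kinases together. The receptors phosphorylate SMAD1, SMAD5 and SMAD9, which enter the nucleus with SMAD4 and activate genes such as those of the Id family. In the developing forebrain, BMPs from the dorsal midline and the meninges are known for patterning the roof of the telencephalon and for acting on progenitors and migrating neurons.

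Nuclei of whole brains from fetal mice were profiled by single-nucleus RNA-seq, in 1 wildtype library and 1 Cav1 knockout (KO) library. Cav1 encodes caveolin 1, a membrane protein of caveolae that is abundant in endothelium. The labels give both samples only as fetal whole brain, without a strain, an exact age, the allele or the number of animals pooled. Nuclei were isolated from frozen tissue and captured in droplets on the 10x Genomics Chromium platform, where each RNA molecule carries a unique molecular identifier (UMI). Each genotype has 1 library, so no difference between them has a replicate check and no p-value is given. Levels are UMIs of a gene per 1000000 UMIs of the same nuclei (CPM), with exact Poisson 95% intervals in brackets. Ratios are log2 of the knockout-labelled over the wildtype-labelled CPM with exact binomial 95% intervals. Both kinds of interval cover counting error only, not variation between animals, and they are too narrow where many UMIs of a gene come from few nuclei.

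Nuclei with at least 500 genes and at most 5% mitochondrial UMIs were kept, 6686 with 17205381 UMIs in the wildtype-labelled and 6680 with 19878903 UMIs in the knockout-labelled library. Cav1 itself had 71 and 80 UMIs over all nuclei (4.13 and 4.02 CPM), so its total does not separate the libraries, and they are named by their labels. Endothelial-like nuclei held 17 Cav1 UMIs under the wildtype label and 1 under the knockout label, and neurons 13 and 41. The libraries shared 43 barcodes, 10 of them among the kept nuclei. Classes of nuclei were rebuilt by clustering without the 10 genes and named from marker lists, so every class is "X-like" and not the authors' annotation. The meninges held 108 and 110 nuclei (wildtype-labelled and knockout-labelled, the order used throughout), vessels 81 and 104, choroid plexus 46 and 46, progenitors 1349 and 1037, and neurons 4026 and 3917. All 12 meningeal fibroblast markers and all 12 endothelial markers were detected in their class in both libraries. Of the 10 choroid plexus markers, Prlr was at 0 in the knockout-labelled library. Marker lists of other classes were present in the small classes too: the list of 9 general neuron markers summed to 1449 and 1379 CPM in the meninges and to 1963 and 2051 CPM in the choroid plexus. Nuclei among the 8% with the highest doublet scores, ranked over both libraries together, made up 22.9% of the meninges, 22.7% of vessels and 26.1% of choroid plexus. In progenitors they made up 4.99% and in neurons 7.39%. The part of nuclei with high doublet scores in the levels below was not tested, except where values without them are given. For those values the 8% were taken within each library. This left 88 of 108 and 78 of 110 meningeal nuclei, and 32 and 37 of 46 choroid plexus nuclei.

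Most UMIs of Bmp5 and Bmp6 lay in the meninges, and under 50% of those of Bmp4 and Bmp7. Together the 4 ligands gave 671 UMIs under the wildtype label and 716 under the knockout label, and 57.4% and 58.1% of these lay in meningeal nuclei, which were 1.62% and 1.65% of all nuclei. Bmp6 made up 251 of 385 meningeal ligand UMIs under the wildtype label and 276 of 416 under the knockout label. The meninges held 47.8% and 25.7% of the Bmp4 UMIs. The choroid plexus held 9.84% and 6.98% of the ligand UMIs in 0.688% and 0.689% of the nuclei. Neurons held 12.5% and 19.6% in 60.2% and 58.6% of the nuclei.

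**Figure D1:**
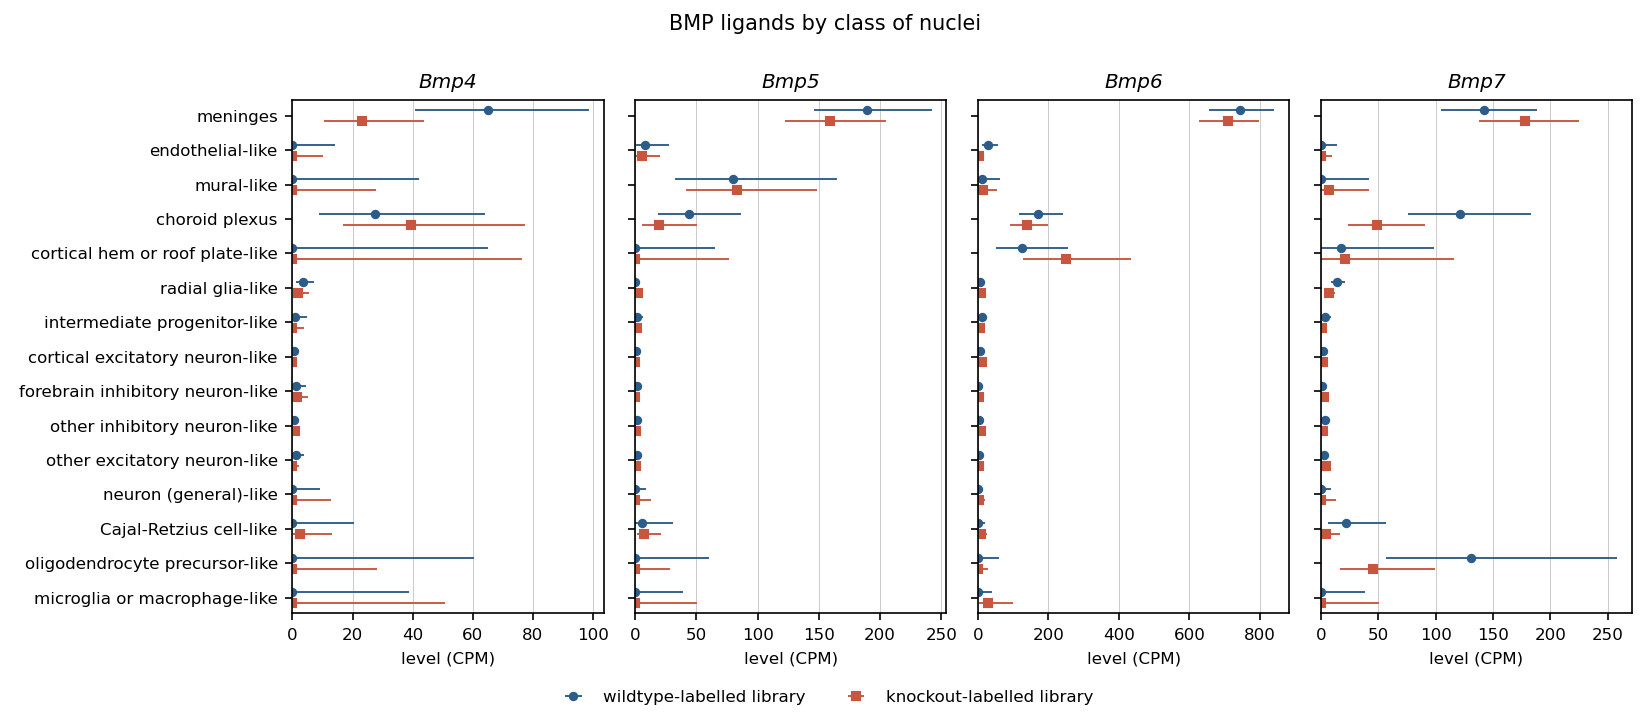
Level of each ligand (CPM, linear axis with its own range per panel) in each class of nuclei, circles for the wildtype-labelled and squares for the knockout-labelled library, bars for exact Poisson 95% intervals. In Bmp5, Bmp6 and Bmp7 the meninges hold the highest level in both libraries. For Bmp4 they do so in the wildtype-labelled library only.

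Bmp6 stood at 744 CPM [654 to 842] and 710 CPM [629 to 799] in the meninges, from 251 and 276 UMIs. Its level there was 99.6 and 82.9 times that of all other nuclei of the same library. These UMIs came from 56 and 68 nuclei, with up to 19 and 13 in 1 nucleus. The choroid plexus followed at 170 and 138 CPM, and cortical hem or roof plate-like nuclei, a signalling centre of the dorsal midline, at 124 and 249 CPM from only 7 and 12 UMIs. The meningeal intervals lay above those of every other class in both libraries, while the choroid plexus and hem intervals overlapped.

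Bmp5 had 64 and 62 UMIs in the meninges, or 190 CPM [146 to 242] and 160 CPM [122 to 205], which was 66% and 65.3% of all its UMIs. Mural-like nuclei, the pericytes and smooth muscle cells of vessels, came next with 7 and 11 UMIs (79.9 CPM [32.1 to 165] and 83 CPM [41.4 to 148]). The mural interval overlapped the meningeal one in both libraries. Bmp5 was the only ligand with more than 2 UMIs in the mural-like nuclei of either library. The choroid plexus had 8 and 4 UMIs of Bmp5.

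Bmp7 had 48 and 69 UMIs in the meninges (142 CPM [105 to 189] and 178 CPM [138 to 225]). It was spread more widely, since 31.8% and 48.3% of its UMIs lay in the meninges. In the choroid plexus it stood at 121 CPM [75.8 to 183] and 49.2 CPM [23.6 to 90.4], from 22 and 10 UMIs. Oligodendrocyte precursor-like nuclei had 8 and 6 UMIs of Bmp7 (131 and 45.6 CPM), and radial glia-like nuclei, the stem cells that line the ventricles, had 25 and 11 (14.0 and 7.04 CPM). No UMI of Bmp7 was found in endothelial-like nuclei, where the intervals reached up to 14.2 and 10.2 CPM.

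Bmp4 was the ligand with the fewest UMIs, 46 and 35 over all nuclei. The meninges had 22 and 9 of them (65.2 CPM [40.8 to 98.7] and 23.2 CPM [10.6 to 44]), in 16 and 9 nuclei. Choroid plexus nuclei had 5 and 8 (27.5 and 39.3 CPM), and the intervals of the 2 tissues overlapped in both libraries. Vessels had none in either library, which allows up to 10.6 and 7.44 CPM.

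To compare shares of nuclei at equal depth, each nucleus was thinned to 1000 UMIs. Bmp6 was then found in 36.2% [27.0 to 46.1] and 38.9% [29.7 to 48.7] of meningeal nuclei, against 0.182% and 0.503% of neurons. Bmp5 was found in 16.2% and 13.0% against 0.130% and 0.132%, Bmp7 in 12.4% and 16.7% against 0.182% and 0.238%, and Bmp4 in 5.71% and 2.78% against 0.0520% and 0%. In neurons, free RNA and low expression cannot be told apart. Unthinned median depths were 2473.5 and 3009 UMIs in the meninges and 2389 and 2778 in neurons. The meningeal share exceeded the neuronal one for every ligand in both libraries.

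Several ligands were often found in the same meningeal nucleus. In the wildtype-labelled library 32 of 108 meningeal nuclei had no UMI of the 4 ligands, 34 had 1 ligand, 28 had 2 and 14 had 3. Under the knockout label they numbered 26, 26, 39 and 18 of 110, and 1 nucleus had all 4. Nuclei with at least 1 ligand were thus the majority of the meninges in both libraries. In the choroid plexus 14 and 24 of 46 nuclei had none, 23 and 12 had 1, 8 and 9 had 2, and 1 and 1 had 3. These counts are not thinned and include the nuclei with high doublet scores.

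**Figure D2:**
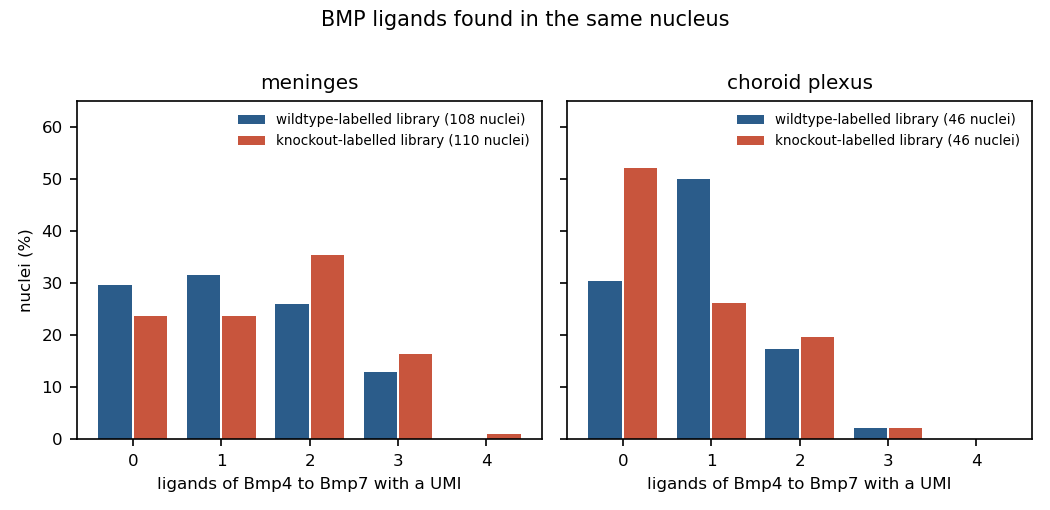
Percent of nuclei (vertical axis, from 0) by the number of ligands among Bmp4, Bmp5, Bmp6 and Bmp7 with a UMI in that nucleus, for the meninges and the choroid plexus, blue for the wildtype-labelled and red for the knockout-labelled library. In the meninges 29.6% and 23.6% of nuclei had none, and 13% and 16.4% had 3.

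Sequence upstream of the ligand genes is shown for Bmp4 and Bmp5, and as short stretches for Bmp6 and Id3, so that the start regions of ligand genes measured in the same meningeal nuclei can be set beside that of a target gene. The windows are RefSeq's (GRCm38.p6), each matched once by a script to GRCm39, whose coordinates are given. For Bmp6 and Id3 the whole window lies in exons of the gene in the GENCODE M39 annotation, so only the 30 bases around the GTCTG matches are printed. Capitals mark matches to GTCTG (the core of a SMAD-binding element) or GGGCGG (a GC box), on either strand.
Bmp4, chr14:46628127-46628376, minus strand: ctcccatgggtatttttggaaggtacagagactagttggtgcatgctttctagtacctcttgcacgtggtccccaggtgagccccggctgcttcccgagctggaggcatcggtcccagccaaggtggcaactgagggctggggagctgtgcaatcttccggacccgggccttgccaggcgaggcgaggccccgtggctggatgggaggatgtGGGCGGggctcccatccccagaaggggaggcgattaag
Bmp5, chr9:75682397-75682637, plus strand: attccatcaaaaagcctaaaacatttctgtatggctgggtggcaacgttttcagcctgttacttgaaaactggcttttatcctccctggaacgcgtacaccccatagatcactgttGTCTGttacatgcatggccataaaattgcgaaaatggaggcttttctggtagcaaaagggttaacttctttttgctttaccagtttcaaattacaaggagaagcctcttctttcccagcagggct
Bmp6, chr13:38529561-38529590, plus strand: agcgcacgtgtgCAGACtgcgagtgaccgt
Id3, chr4:135870954-135870983, plus strand: tgtcctcggcgtCAGACcagcctaaggaag
Id3, chr4:135871053-135871082, plus strand: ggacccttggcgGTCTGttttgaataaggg
The Bmp4 stretch lies inside the annotated span of Bmp4 without touching its exons, and the Bmp5 stretch ends at the first base before Bmp5.

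Motifs were searched in 250 bases before the start on both strands for 8 of the 10 genes (all but Bmp7 and Id1). These starts are RefSeq's, and many windows lie in exons of the same gene in GENCODE M39. This holds for all 250 bases in Bmp6, Id3, Bmpr1a, Bmpr2 and 1 of the Bmpr1b windows. It holds for 202 and 55 bases in the other Bmpr1b windows, 47 in Bmper and 9 in Bmp5. Matches can overlap: the GGGCGG matches of Id3 overlap each other, as do the TATAA matches of Bmpr1b. GTCTG or its complement CAGAC was found in the windows of Bmp5 (134 bases upstream), Bmp6 (119 bases upstream), Id3 (167 and 68 bases upstream) and in 2 of 3 Bmpr1b windows. It is common, with a match in 42.2% of 32851 windows of the same length. The GC-rich BMP response motif GGCGCC, found in 9.59% of all windows, was in those of Bmpr1a and Bmpr2, both within annotated exons. GGGCGG was found in those of Bmp4, Bmp6, Bmper, Bmpr1a, Bmpr2 and Id3, against 32.7% of all windows. TATAA, found in 22.8% of windows, was in those of Id3 and 1 of the Bmpr1b starts. The Bmp5 window had 42.8% GC, below the median of 52.4% over all windows, and those of Bmp4, Bmp6, Bmper, Bmpr1a, Bmpr2 and Id3 had 62.8% to 78.8%. Such matches are letters in a window and describe no binding.

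Bmper encodes a secreted BMP-binding protein that can restrain or promote BMP signalling. Unlike the ligands, it was highest among the named classes in radial glia-like nuclei, with 416 and 272 UMIs (233 CPM [211 to 256] and 174 CPM [154 to 196]). The largest radial glia cluster stood at 275 and 216 CPM. Forebrain inhibitory neuron-like nuclei came second at 132 CPM [115 to 151] and 116 CPM [98.5 to 135] from 212 and 163 UMIs. Intermediate progenitor-like nuclei, the dividing cells that follow radial glia in the neuronal lineage, had 83.8 and 56.3 CPM. Cortical excitatory neuron-like nuclei were low at 18.3 and 13.2 CPM. The radial glia interval lay above that of every other named class in both libraries. Unnamed nuclei were not ranked, and a dividing cluster of them had 86 and 98 Bmper UMIs (186 and 191 CPM). Dlx1 was among its leading genes. In the knockout-labelled library its Bmper level was above that of radial glia-like nuclei.

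**Figure D3:**
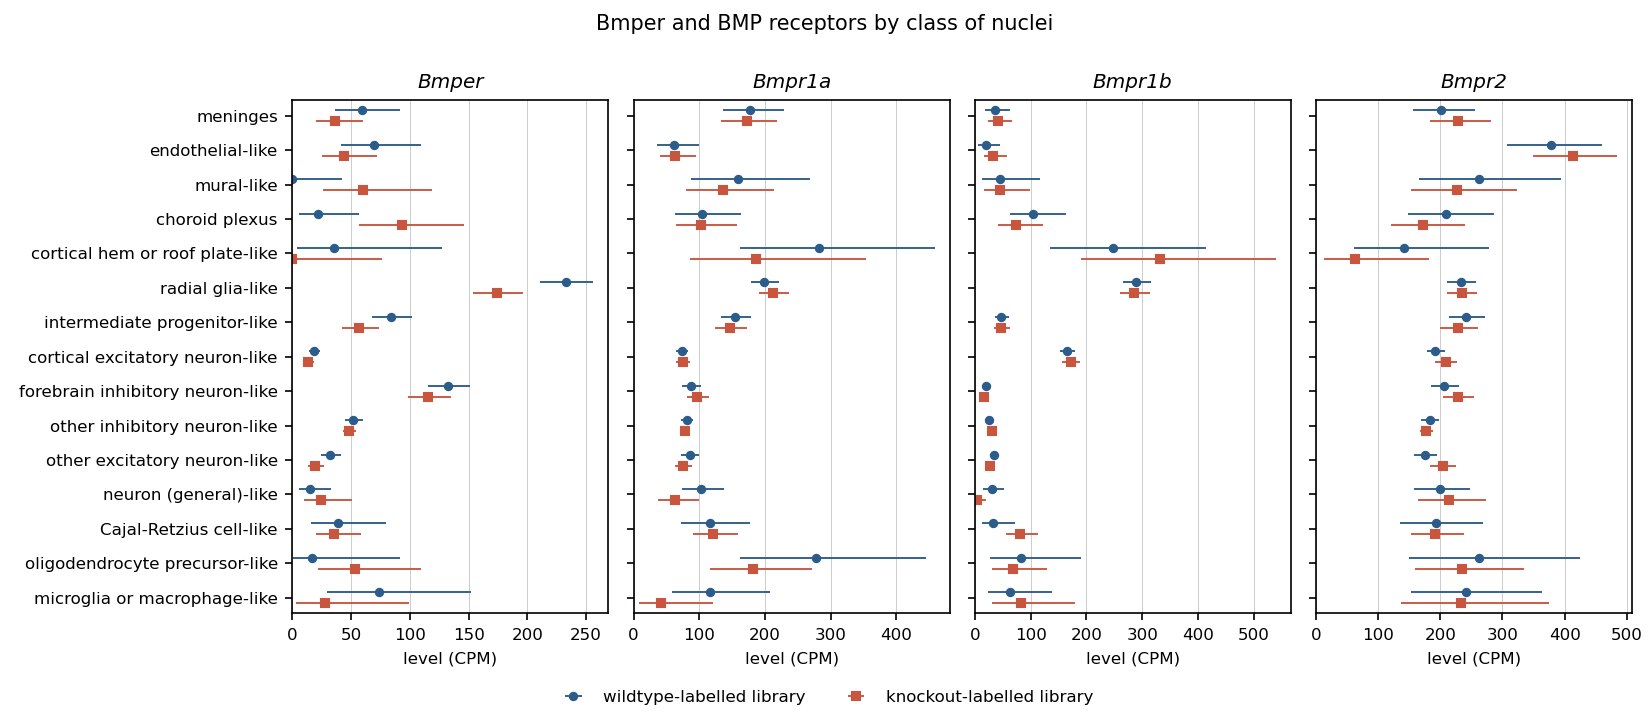
Level of Bmper and of the 3 receptors (CPM, linear axis with its own range per panel) in each class of nuclei, circles for the wildtype-labelled and squares for the knockout-labelled library, bars for exact Poisson 95% intervals. Bmper and Bmpr1b differ widely between classes, whereas Bmpr2 lies between 172 and 413 CPM in all classes but the hem or roof plate-like nuclei.

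All 3 receptor genes had UMIs in every class, and Bmpr1b differed widely between classes. Bmpr1a, a type I receptor kinase, had 1849 and 2007 UMIs over all nuclei. It stood at 199 CPM [179 to 221] and 212 CPM [190 to 237] in radial glia-like nuclei, 155 and 147 CPM in intermediate progenitor-like nuclei, and 81.5 and 80.0 CPM in neurons. The radial glia interval lay above that of neurons in both libraries. In the meninges Bmpr1a stood at 178 and 172 CPM, with intervals that overlapped those of radial glia. Hem or roof plate-like nuclei (16 and 9 UMIs) and oligodendrocyte precursor-like nuclei (17 and 24 UMIs) had 283 and 187 CPM and 278 and 182 CPM, also overlapping.

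Bmpr1b, the second BMP type I receptor gene measured, had 518 and 446 UMIs in radial glia-like nuclei (290 CPM [265 to 316] and 285 CPM [260 to 313]). Hem or roof plate-like nuclei stood at 247 CPM [135 to 415] and 332 CPM [190 to 539] from 14 and 16 UMIs, the highest level in the knockout-labelled library, with intervals that overlapped those of radial glia in both. Intermediate progenitor-like nuclei had 47.5 CPM [35.8 to 61.8] and 46.9 CPM [34.2 to 62.8]. Cortical excitatory neuron-like nuclei had 586 and 469 UMIs (165 and 172 CPM), with intervals above those of the intermediate progenitors in both libraries. Forebrain inhibitory neuron-like nuclei were low at 20.0 and 16.3 CPM. The radial glia interval lay above that of the intermediate progenitors in both libraries. A small radial glia cluster led by genes such as Pax3 and Pax7, which mark the dorsal neural tube, had 50 and 46 UMIs in 46 and 46 nuclei (523 and 403 CPM).

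Bmpr2, the type II receptor gene, had 3434 and 3994 UMIs over all nuclei. Endothelial-like nuclei stood highest at 378 CPM [307 to 461] and 413 CPM [350 to 485], from 98 and 150 UMIs. Mural-like nuclei stood at 262 and 226 CPM, radial glia-like nuclei at 233 and 234 CPM, the meninges at 201 and 229 CPM, and neurons at 189 and 194 CPM. The endothelial interval lay above those of radial glia and neurons in both libraries. It overlapped that of mural-like nuclei in the wildtype-labelled library only. Endothelial-like nuclei had few UMIs of Bmpr1a, 16 and 23 (61.8 and 63.4 CPM), and of Bmpr1b, 5 and 12 (19.3 and 33.1 CPM). Acvrl1, a further type I receptor gene, had 24 and 61 UMIs in the same nuclei (92.7 and 168 CPM).

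Receptor pairs within nuclei were counted after thinning each nucleus to 2000 UMIs. In radial glia-like nuclei 59.6% [54.8 to 64.2] of 438 and 55.8% [50.7 to 60.9] of 385 had a UMI of Bmpr1a or Bmpr1b. For neurons the shares were 22.7% and 20.4%, and for endothelial-like nuclei 0 of 35 (up to 10.0%) and 9 of 50 (18.0%). Bmpr2 was found in 35.2% and 34.0% of radial glia-like, 29.2% and 31.3% of neuron and 42.9% and 54.0% of endothelial-like nuclei. Bmpr2 together with Bmpr1a or Bmpr1b was found in 21.9% and 19.0% of radial glia-like nuclei, 11.7% and 9.33% of intermediate progenitor-like nuclei, and 6.28% and 6.91% of neurons. A nucleus without a UMI may still express the gene at this depth.

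Id1 and Id3 encode inhibitors of basic helix-loop-helix transcription factors, and their transcription responds to SMAD1 and SMAD5. Id1 was highest in endothelial-like nuclei, with 35 and 64 UMIs (135 CPM [94.1 to 188] and 176 CPM [136 to 225]), 12.1 and 11.8 times the level of all other nuclei. In the meninges it stood at 38.5 and 36.0 CPM, in radial glia-like nuclei at 17.9 and 33.9 CPM and in neurons at 7.65 and 8.16 CPM. No other class in the plot of Id levels exceeded 70.6 CPM of Id1. The endothelial interval lay above those of the meninges, radial glia and neurons in both libraries.

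Id3 was shared among several non-neuronal classes. Endothelial-like nuclei stood at 57.9 CPM [32.4 to 95.5] and 107 CPM [76.4 to 147] from 15 and 39 UMIs, and the meninges at 59.3 CPM [36.2 to 91.5] and 90.1 CPM [62.7 to 125] from 20 and 35. Hem or roof plate-like nuclei had 9 and 5 UMIs (159 and 104 CPM). The intervals of these 3 classes overlapped in each library. Progenitors stood at 24.8 and 25.4 CPM and neurons at 11 and 11.8 CPM.

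**Figure D4:**
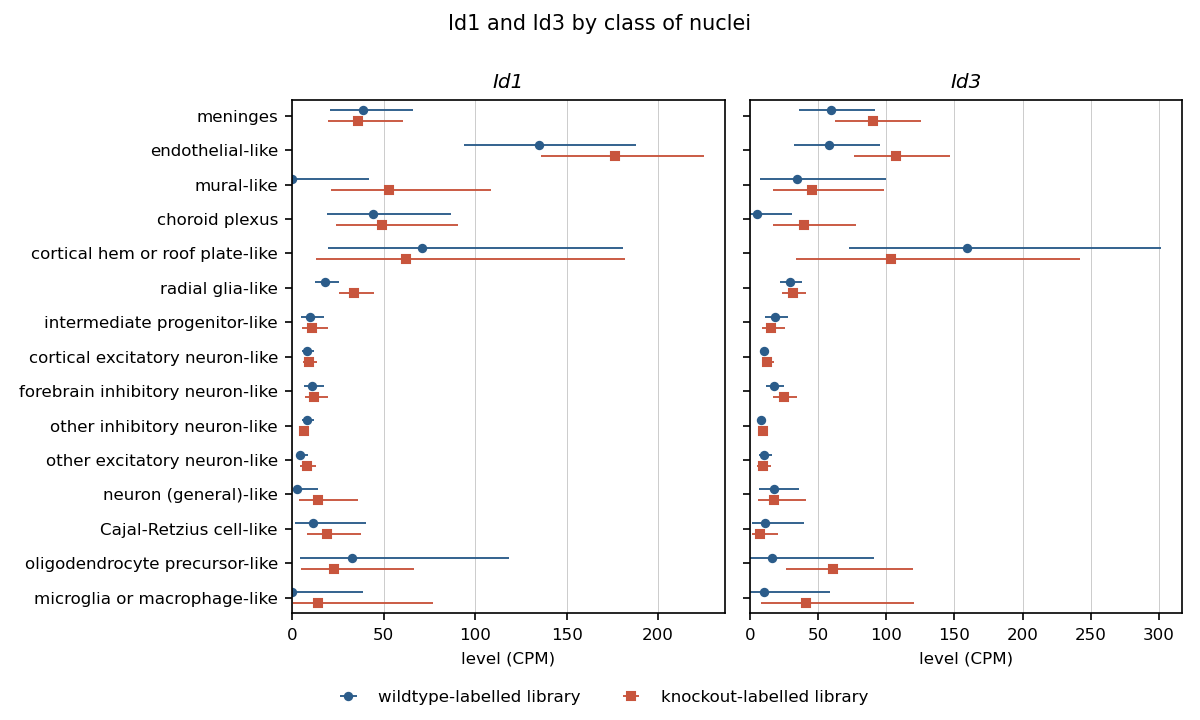
Level of Id1 and Id3 (CPM, linear axes from 0) in each class of nuclei, circles for the wildtype-labelled and squares for the knockout-labelled library, bars for exact Poisson 95% intervals. Id1 is highest in endothelial-like nuclei (135 and 176 CPM), while Id3 is spread over hem or roof plate-like, meningeal and endothelial-like nuclei.

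Of the 5 groups of classes, the same one held the highest level in both libraries for 8 of the 10 genes. Hem or roof plate-like, oligodendrocyte precursor-like, microglia or macrophage-like and unnamed nuclei are in none of the 5 groups. Hem or roof plate-like nuclei stood above all 5 groups in Bmpr1a (283 CPM) and Id3 (159 CPM) under the wildtype label. They also did so in Bmpr1b (332 CPM) under the knockout label, each level from at most 16 UMIs. The meninges did so for Bmp5, Bmp6 and Bmp7, progenitors for Bmper, Bmpr1a and Bmpr1b, and vessels for Bmpr2 and Id1. The exceptions were Bmp4, highest in the meninges and then in the choroid plexus, and Id3, highest in the meninges and then in vessels. For Bmpr1a the levels of progenitors (182 and 188 CPM) and of the meninges (178 and 172 CPM) had overlapping intervals, and the meninges stood highest in the wildtype-labelled library under 3 of 7 alternatives: nuclei of high doublet scores removed, thinning before clustering, and the 10 genes kept among the variable genes. Scaling by the median of gene ratios, among these 7, was not applied to the ranked levels, so it could not change the highest group. Id3 was highest in the meninges in both libraries with a minimum of 1000 genes and with nuclei of high doublet scores removed. The count of 8 thus depends on the setting and ranged from 7 to 9.

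The comparison of the libraries asks how these genes stood without caveolin 1, as far as the labels name the contrast. A gene was called past the fold when its log2 ratio was at least 0.5 in size, its counting interval excluded 0 and it had at least 20 UMIs over both libraries. Over all nuclei none of the 10 genes was past the fold, where 5.52% of the 21131 genes tested were. Bmp6 had 377 and 443 UMIs (21.9 and 22.3 CPM; log2 ratio 0.02, -0.18 to 0.23) and Bmpr2 a ratio of 0.01 (-0.06 to 0.08). The ratios of Id1 (224 and 355 UMIs; 0.46, 0.21 to 0.70), Id3 (306 and 445 UMIs; 0.33, 0.12 to 0.55), Bmper (1279 and 1197 UMIs; -0.30, -0.42 to -0.19) and Bmpr1b (-0.17, -0.27 to -0.07) had intervals on 1 side of 0 but were smaller than the fold. The median ratio of the 10 genes was -0.13, beside -0.01 over all genes tested. Sums over all nuclei also carry the mix of classes. Radial glia-like nuclei, the named class where Bmper was highest, were 11.4% of one library and 9.0% of the other. Within this class Bmper was also lower under the knockout label (233 and 174 CPM). The part of the mix of classes in the Bmper ratio over all nuclei was not tested.

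**Figure D5:**
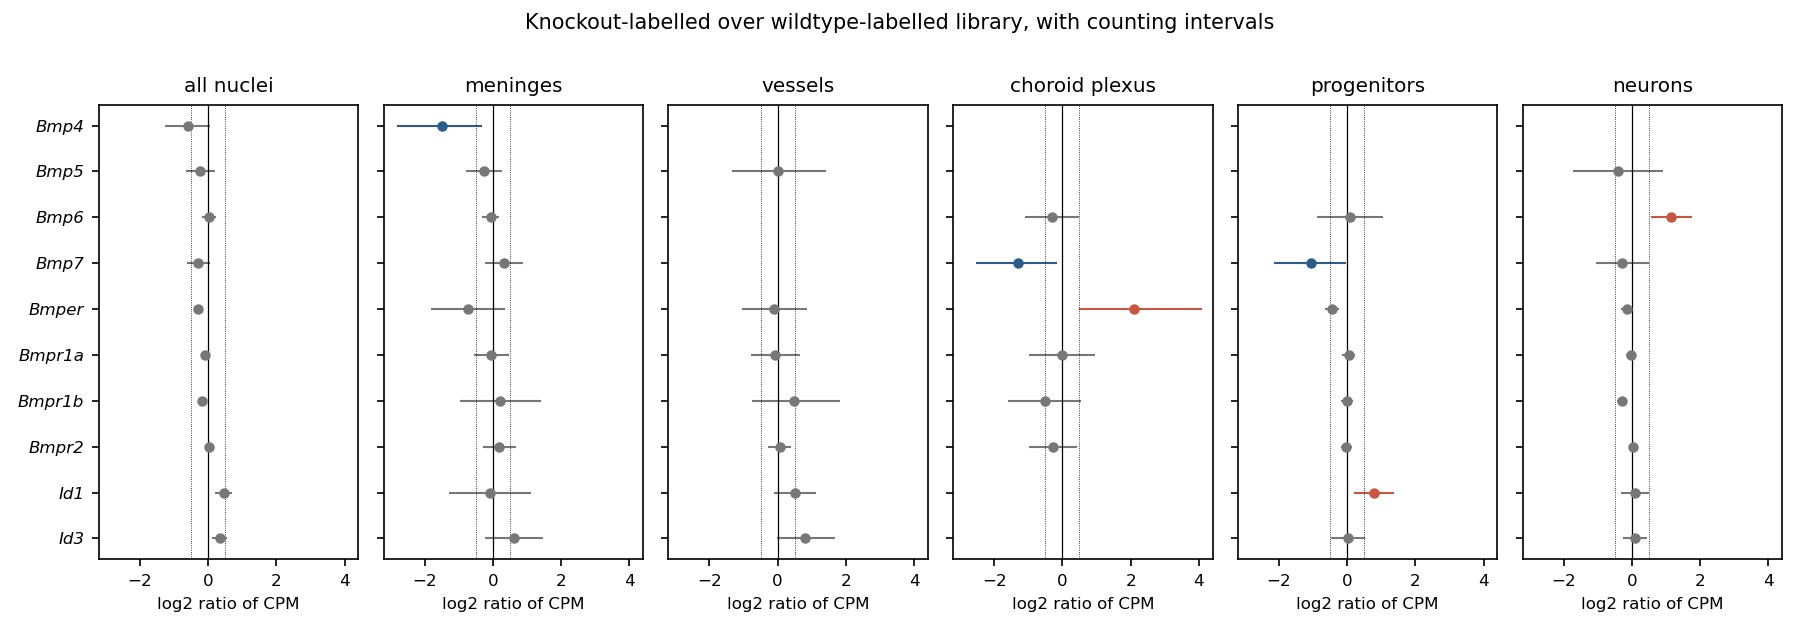
Log2 ratio of the knockout-labelled over the wildtype-labelled CPM (horizontal axis) for each gene over all nuclei and in 5 groups of classes, with exact binomial 95% intervals, for genes with at least 20 UMIs. Dotted lines mark a log2 ratio of 0.5 in either direction, and coloured points are past the fold, 0 of 10 over all nuclei and 6 of 40 in the groups.

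Within the 5 groups, 6 of 40 ratios were past the fold. The counts were 1 of 10 genes in the meninges (6.86% of all genes tested there), 0 of 7 in vessels (7.49%), 2 of 6 in the choroid plexus (8.48%), 2 of 8 in progenitors (4.58%) and 1 of 9 in neurons (5.56%). With so few genes in a group, 1 call is already a larger share than the background, so the counts are coarse. Among the single classes, ratios past the fold numbered 1 of 5 in endothelial-like nuclei, 1 of 8 in radial glia-like, 1 of 6 in intermediate progenitor-like, 1 of 8 in other inhibitory neuron-like, 1 of 6 in other excitatory neuron-like and 1 of 4 in Cajal-Retzius cell-like nuclei. The background in these classes was 8.58%, 5.34%, 4.57%, 4.49%, 4.49% and 9.89%. None was past the fold in mural (2 tested, background 12.8%), cortical excitatory neuron (7, 4.1%), forebrain inhibitory neuron (6, 4.71%), general neuron (2, 6.01%) and oligodendrocyte precursor-like nuclei (2, 7.28%).

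In the meninges Bmp4 had 22 UMIs in 16 nuclei under the wildtype label and 9 UMIs in 9 nuclei under the knockout label (log2 ratio -1.49, -2.80 to -0.32). Bmp6 (-0.07, -0.32 to 0.19), Bmp5 (-0.25, -0.78 to 0.28) and Bmp7 (0.32, -0.23 to 0.88) were not past the fold there. Without the nuclei of high doublet scores Bmp4 had 17 and 7 UMIs and its interval included 0 (-1.18, -2.69 to 0.16), as it did when they were removed before clustering (-1.20, -2.72 to 0.16). Beside this, the list of 7 Cajal-Retzius cell markers summed to 299 and 121 CPM in the meninges and that of 7 hem markers to 181 and 79.8 CPM, while the meningeal list stood at 2995 and 3620 CPM. Their part in the Bmp4 difference was not tested.

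In the choroid plexus Bmp7 was lower in the knockout-labelled library (22 and 10 UMIs in 17 and 8 nuclei; -1.30, -2.54 to -0.16) and Bmper was higher (4 and 19 UMIs in 3 and 8 nuclei; 2.09, 0.50 to 4.10). The interval of Bmp6 there included 0 (31 and 28 UMIs; -0.31, -1.10 to 0.48). Of the 19 Bmper UMIs, 6 came from 1 nucleus. The choroid list summed to 13030 and 13710 CPM, the radial glia list to 869 and 1077 CPM and the list of other excitatory neurons to 1160 and 541 CPM in these nuclei. The part of nuclei of other classes was not tested. With the nuclei of high doublet scores removed before clustering, and at clustering resolutions of 0.5 and 2, both genes had under 20 UMIs in the choroid plexus and gave no ratio. With a minimum of 1000 genes per nucleus the interval of Bmp7 included 0 (-0.95, -2.20 to 0.20).

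In progenitors Id1 was higher in the knockout-labelled library, with 43 UMIs in 40 nuclei against 63 UMIs in 60 nuclei (14.6 and 25.0 CPM; 0.78, 0.19 to 1.37). In radial glia-like nuclei it had 32 and 53 UMIs (0.92, 0.26 to 1.60), and 1 of 8 genes tested was past the fold beside a background of 5.34%. In intermediate progenitor-like nuclei Id1 had 11 and 10 UMIs (0.14, -1.26 to 1.51). A sub-cluster led by Dbx2, with 16 and 53 nuclei, held 0 and 12 of the Id1 UMIs, and without all such sub-clusters the ratio was 0.77 (0.08 to 1.48). The share of progenitors with a UMI of Id1 was 2.97% and 5.79% unthinned, 1.57% [0.959 to 2.41] and 1.83% [1.09 to 2.87] at 1000 UMIs, and 3.28% [2.09 to 4.88] and 5.57% [3.89 to 7.70] at 2000 UMIs. At equal depth these intervals overlapped. Endothelial-like nuclei held the highest Id1 of any class, and their marker list summed to 80.5 and 231 CPM in radial glia-like nuclei, with Tie1 and Abcb1a at 0 in the wildtype-labelled and Cdh5 at 0 in the knockout-labelled library. The part of such RNA in the Id1 difference was not tested. Id3 did not differ by the fold in progenitors (73 and 64 UMIs; 0.03, -0.47 to 0.54).

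Bmp7 in progenitors was lower in the knockout-labelled library (29 and 12 UMIs in 27 and 12 nuclei; -1.05, -2.15 to -0.03), with an interval that ended close to 0. It included 0 when nuclei of high doublet scores were removed (-0.94, -2.11 to 0.13), at resolution 0.5 (-0.63, -1.65 to 0.34), at resolution 2 (-0.79, -1.88 to 0.23), after thinning before clustering (-0.77, -1.82 to 0.21), and by its upper end of 0.0007 with a minimum of 1000 genes. Bmper in progenitors had a smaller ratio from many more UMIs (513 and 326; -0.43, -0.63 to -0.23). Within intermediate progenitor-like nuclei it was past the fold (97 and 54 UMIs; -0.57, -1.08 to -0.08; background 4.57%), and in radial glia-like nuclei it was not (-0.42, -0.64 to -0.19). The receptors had ratios near 0 in progenitors, 0.05 (-0.13 to 0.23) for Bmpr1a, 0.00 (-0.17 to 0.18) for Bmpr1b and -0.03 (-0.19 to 0.13) for Bmpr2.

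In neurons Bmp6 was higher in the knockout-labelled library, at 2.94 CPM [2.02 to 4.12] and 6.47 CPM [5.19 to 7.97] from 33 and 88 UMIs in 23 and 57 nuclei (1.14, 0.55 to 1.76). These levels are far below those of the meninges. A cluster of other inhibitory neuron-like nuclei led by Cdh9 and Cdh18 had 3 UMIs in 389 nuclei and 41 UMIs in 748 nuclei (1.57 and 9.0 CPM; 2.52, 0.87 to 4.85). The inhibitory markers that named that cluster were Gata3, Slc6a5, Pax2 and Lhx1. Gad1, Gad2 and Slc32a1 did not pass the naming threshold in it, so its inhibitory name is uncertain. Without that cluster the ratio was 0.69 (0.003 to 1.41), and with nuclei of high doublet scores removed before clustering it was 0.61 with an interval that included 0 (-0.04 to 1.29). With the classes kept and the nuclei of high doublet scores left out, neurons had 28 and 78 Bmp6 UMIs (2.81 and 6.30 CPM). At resolutions of 0.5 and 2, with all nuclei clustered, the ratio was 0.69 and 0.66. The whole class of other inhibitory neuron-like nuclei, that cluster included, had 8 and 49 Bmp6 UMIs (log2 ratio 1.66, background 4.49%). The remaining clusters of the class had 4 and 8 UMIs (3.46 and 3.94 CPM) and 1 and 0 UMIs. Median depth in neurons was 2389 and 2778 UMIs. A cluster of cortical excitatory neuron-like nuclei with Tafa1 among its leading genes had the highest neuronal level, 22.3 and 44.7 CPM, from 17 UMIs in 7 nuclei and 24 UMIs in 10 nuclei. Bmpr1b in Cajal-Retzius cell-like nuclei, the Reln-secreting neurons of the cortical surface, was also past the fold (6 and 34 UMIs in 3 and 18 nuclei; 1.28, 0.01 to 2.82; background 9.89%).

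In vessels no gene was past the fold, but Id1 (35 and 71 UMIs; 0.51, -0.10 to 1.13) and Id3 (18 and 45 UMIs; 0.81, -0.01 to 1.68) had ratios above it with intervals that included 0. Id3 in vessels was past the fold with a minimum of 1000 genes (0.85), after thinning before clustering (1.42) and with scaling by the median of gene ratios (0.83). In the endothelial-like nuclei alone Id3 was past the fold with an interval that began at 0 to 2 decimals (0.89, 0.00 to 1.86; background 8.58%), and Id1 was not (0.38, -0.23 to 1.02). In those nuclei the endothelial list summed to 6686 and 9268 CPM and the erythroid list to 876 and 3482 CPM. Their part in the Id values was not tested. Nuclei that no class name fitted, 1003 and 1391, also had more Id1 (33 and 79 UMIs; 0.94, 0.34 to 1.57) and Id3 (59 and 117 UMIs; 0.67, 0.20 to 1.14) in the knockout-labelled library, with a background of 5.6%, and less Bmp6 (26 and 15 UMIs; -1.11). Their largest cluster was led by haemoglobin and ribosomal genes, had a median of 717 UMIs and held 13 and 47 of the Id1 UMIs.

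The wider pathway was described by a list of 70 further ligands, modulators, receptors, transducers and targets, of which 60 had at least 20 UMIs over all nuclei. Only Acvrl1 and Eng were past the fold over all nuclei, both higher in the knockout-labelled library (background 3.87% higher), and none was lower (background 1.66%). Acvrl1 encodes the endothelial type I receptor of BMP9 and BMP10 and had 38 and 86 UMIs (0.97, 0.40 to 1.56). Eng encodes its co-receptor endoglin and had 121 and 213 UMIs (0.61, 0.28 to 0.94). In endothelial-like nuclei Acvrl1 stood at 92.7 and 168 CPM (0.86, 0.16 to 1.60) and Eng at 274 and 391 CPM (0.51, 0.09 to 0.95). Beside this, endothelial-like nuclei were 0.718% and 0.958% of all nuclei, and the endothelial list in them summed to 6686 and 9268 CPM. The part of either in the Acvrl1 and Eng ratios was not tested. By role, 2 of 11 receptors, 0 of 10 ligands, 0 of 19 modulators, 0 of 12 transducers and 0 of 8 targets were past the fold. The median ratio of the list was 0.03, beside -0.01 over all genes.

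By group, vessels had 3 of 32 list genes higher (Acvrl1, Smad7 and Skil) and 2 lower (Acvr1b and Zeb2), progenitors 0 of 39 higher and 3 lower (Tll2, Smad6 and Smad7), and neurons 2 of 57 higher (Tgfbr3 and Lmx1a) and 0 lower. The meninges had 0 of 31 higher and 2 lower (Fstl4 and Fstl5), and the choroid plexus 0 of 22 higher and 1 lower (Zeb2). The background shares higher and lower were 3.88% and 3.61% in vessels, 2.68% and 1.9% in progenitors, 4.04% and 1.52% in neurons, 3.48% and 3.38% in the meninges, and 4.3% and 4.19% in the choroid plexus. Genes in these counts were named after their values were seen. Smad6 and Smad7 encode inhibitory SMADs that restrain the pathway. Smad7 had 166 and 95 UMIs in progenitors (56.3 and 37.7 CPM; -0.58, -0.96 to -0.21), and 46 and 108 in vessels (133 and 218 CPM; 0.72, 0.20 to 1.25). The 2 ratios of Smad7 thus had intervals on opposite sides of 0. Smad6 had 94 and 55 UMIs in progenitors (31.9 and 21.8 CPM; -0.55, -1.06 to -0.05). These were 2 of 11 transducers and inhibitors tested in progenitors, whose median ratio was -0.05. Of the 6 targets of the list tested there, 0 were past the fold, with a median ratio of 0.01. What these values mean for signalling was not tested.

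Some list genes stood in a class at least 4 times above all other nuclei in both libraries, a few of them in several classes. Tgfbr3, the betaglycan co-receptor, stood at 338 and 401 CPM in the meninges (28.3 and 25.6 times) and the target gene Hey2 at 23.7 and 41.2 CPM (8.0 and 16.7 times). In the choroid plexus the secreted antagonist Sostdc1 stood at 115 and 113 CPM (70.2 and 55.6 times) and Lmx1a, a transcription factor of the roof plate, at 495 and 379 CPM (47.6 and 29.3 times). Rgma, a BMP co-receptor, stood at 284 and 340 CPM in radial glia-like nuclei (4.58 and 4.68 times), and Inhbb at 39.2 and 45.4 CPM there. In mural-like nuclei Fstl1 stood at 251 and 287 CPM. Eng stood there at 183 and 90.5 CPM (29.8 and 8.89 times) and higher in endothelial-like nuclei (92.9 and 108 times). The endothelial list summed to 901 and 535 CPM in mural-like nuclei, and its part in their Eng level was not tested. In other inhibitory neuron-like nuclei Fstl4 stood at 105 and 113 CPM. Inhba had 52.2 and 49.0 CPM in neurons of no named type. Beside the ligands, then, both the meninges and the choroid plexus carried pathway genes of other roles.

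Likeness of pattern was measured as Pearson's r of log2(CPM + 10) over 26 sums (13 classes in 2 libraries), among 13256 genes with at least 200 UMIs. The points share libraries, and r is given as a description. Bmp6 was most like Aebp1 (0.95), Gpc3 (0.92) and Gm14582 (0.91), and Bmp5 most like Slc6a20a (0.95), Colec12 (0.93) and Gm15261 (0.91). Bmp4 was most like Dcdc2a (0.94), Bmp6 (0.92) and A630012P03Rik (0.89), and Bmp7 most like Naaladl2 (0.89), Mamdc2 (0.87) and Stk39 (0.84). Among the ligands themselves r was 0.92 between Bmp4 and Bmp6, 0.83 between Bmp5 and Bmp6, 0.74 between Bmp4 and Bmp7, 0.70 between Bmp6 and Bmp7, 0.68 between Bmp4 and Bmp5 and 0.55 between Bmp5 and Bmp7. Bmper was most like Ostm1 (0.83), Kat2b (0.80) and Nr2e1 (0.75), a transcription factor of neural stem cells. Bmpr1a was most like Nrf1 (0.89), Cenph (0.87) and Gm29683 (0.87), and Bmpr1b most like Wwc1 (0.80), Fgfr1 (0.78) and Adamts20 (0.74). Bmpr2 was most like Fli1 (0.87), an endothelial and blood transcription factor, Etv6 (0.85) and Gm15614 (0.85). Id1 was most like Bsg (0.90), Pdgfd (0.86) and Aplp2 (0.85), and Id3 most like Rell1 (0.87), Cd81 (0.85) and Kank2 (0.85). Between Id1 and Id3 r was 0.65.

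In the GENCODE M39 annotation of GRCm39 the 10 genes lie on 7 chromosomes. The ligands are Bmp4 (chr14:46620250-46636745, minus strand), Bmp5 (chr9:75682638-75807592, plus strand), Bmp6 (chr13:38529065-38684280, plus strand) and Bmp7 (chr2:172709805-172782410, minus strand). Bmper is at chr9:23134325-23396509 (plus strand). The receptors are Bmpr1a (chr14:34132687-34225379, minus strand), Bmpr1b (chr3:141542897-141875323, minus strand) and Bmpr2 (chr1:59802544-59918173, plus strand), and the targets Id1 (chr2:152566218-152579544, plus strand) and Id3 (chr4:135870808-135873066, plus strand). Every one but Bmper overlaps at least 1 annotated gene on the opposite strand, such as Txndc5 at the end of Bmp6 (276 and 346 UMIs) and Gm26903 at that of Bmp5 (54 and 75 UMIs). Whether the counting used the strand is not given in the sources used here, so reads of such partners cannot be told apart with certainty.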

How the data were processed

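For each of the 2 libraries the deposited matrix gives unnormalised UMI counts by gene and barcode. The authors made these counts with Cell Ranger, version 6.1.1 per the file headers and version 3.0.1 per the submitters' processing notes, which also name STAR and GRCm39. The cause of the difference in version, and whether intronic reads or the strand were used, are not given in the sources used here. By Ensembl identifier, 54749 features (98.8%) matched the GENCODE M39 annotation.

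Barcodes with at least 500 genes and at most 5% mitochondrial UMIs were kept. Scrublet's automatic threshold (scanpy 1.11.5) called 0 doublets in each library, so none were removed, and removal of the 8% with the highest scores (535 and 534 nuclei) was an alternative. Both libraries were clustered together on 2000 variable genes in total, chosen across the libraries. Leiden clustering (leidenalg 0.10.2) used 30 principal components and 15 neighbours at resolution 1. Variable genes excluded the 10 members, Cav1, mitochondrial genes, Xist, Tsix and genes of the Y chromosome. A cluster was named from at least 3 markers that were 2-fold above the other nuclei, and 1.5-fold within each library. Clusters stayed unnamed if markers of another class outnumbered their own among the 10 leading genes or if over 50% of their nuclei had high doublet scores. They also stayed unnamed if a neuronal name came with at least 3 dividing-cell markers, or at low depth without a leading marker. A dividing cluster with Dlx1 among its leading genes (259 and 257 nuclei) stayed unnamed and is not among the progenitors. In addition, 1 mixed cluster was clustered again. These naming thresholds were set after the clusters were seen.

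UMIs were summed per class and library, and CPM, shares and log2 ratios were computed from the sums with exact intervals (scipy 1.17.1). The ratio script was tested on simulated data. The members and lists were chosen with earlier results of these data known. All 10 members are named. Of the 70 list genes, those with at least 100 UMIs that were past the fold over all nuclei are named, and the 2 strongest per class among those at least 4-fold higher there in both libraries. Outside this rule, the list genes past the fold in the 5 groups are named, among them Smad6 and Smad7 with values. That choice was made after their values were seen. The 3 genes most like each member in pattern are also named. The alternatives were other filters, resolutions, scaling, thinning, doublet removal and clustering with the members.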

Additional observations from a re-analysis of the deposited data

Results flagged for a closer look

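Bmper had ratios past the fold in opposite directions in different classes. The choroid plexus had more of it under the knockout label (log2 ratio 2.09, from 4 and 19 UMIs), and there was less of it in intermediate progenitor-like nuclei (-0.57, from 97 and 54 UMIs) and in other excitatory neuron-like nuclei (-0.71, from 61 and 35 UMIs). The difference between these classes was not tested.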

How the results depend on the processing

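Under the filter, doublet, scaling and named-class alternatives, none of the 10 genes was past the fold over all nuclei. The count of ratios past the fold in the 5 groups, 6 of 40 in the report, was 1 of 32 when the 8% of nuclei with the highest doublet scores were removed before clustering (Id1 in progenitors, 0.77), 3 of 37 at resolution 0.5 and 3 of 37 at resolution 2. At both resolutions the 3 were Bmp4 in the meninges, Id1 in progenitors and Bmp6 in neurons. Part of these falls is built in, since fewer ratios reached 20 UMIs, and the cause of the rest was not tested. The count was 5 with a minimum of 1000 genes, 6 after thinning, 6 with the members among the variable genes and 7 with scaling by the median of gene ratios. Id1 in progenitors was past the fold under all 7 alternatives of this count. No ratio past the fold changed sign. The genes with the same highest group in both libraries, 8 of 10 in the report, numbered 7 to 9. Bmp7 in neurons, not past the fold, went from -0.27 to 0.57 (-0.37 to 1.56) with a minimum of 1000 genes. The values without single clusters, sub-clusters or high-score nuclei, and those over named classes only, were chosen after seeing the data.

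Depth limits the ligands outside the meninges, where many classes held under 20 UMIs of each. With 1 library per genotype no alternative measures variation between animals. No paired analysis was possible because each genotype has 1 library.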

Other observations

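Barcodes outside the filter on nuclei held 1843454 UMIs under the wildtype label and 2626005 under the knockout label. Of the 10 genes, Bmpr1a was past the fold there, with 79 and 79 UMIs (42.9 and 30.1 CPM, log2 ratio -0.51, -0.98 to -0.04), beside 5.39% of the 12124 genes tested.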
